A study of Homo sapiens with 4 samples.

Results

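The peaks described here lie outside chromosomes 1 to 22, X and Y of the human genome build GRCh38. They come from ChIP-seq of p53 in H1299, an established line of non-small-cell lung carcinoma cells labelled p53-/-, in which wild-type p53 (p53WT, 2 libraries) or a mutant form named CASM34 (2 libraries) was expressed. All 4 libraries were precipitated with the p53 antibody DO-1, after micrococcal nuclease and sonication. Each library carries a number, 1 or 2, in its title. The labels do not say whether the replicates were separate cultures, so a p-value here reflects only how the deposited libraries vary, possibly for technical reasons. How p53 was introduced is not given in the sources used here, and no library of cells without p53 or without antibody was analysed here. Members were taken by the name of the sequence alone: 221 of 1825 distinct intervals in p53WT 1, 398 of 5359 in p53WT 2, 249 of 1961 in CASM34 1 and 310 of 3521 in CASM34 2. Merged over libraries by an overlap of at least 1 bp, they formed 548 of the 8297 regions of the series.

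p53 is a transcription factor that binds paired short motifs near its target genes and, after DNA damage, activates genes of cell cycle arrest and cell death. A genome build holds more than its chromosomes. Unlocalized scaffolds are assigned to a chromosome but to no position on it, and unplaced scaffolds to no chromosome. Alternate loci and patches are further versions, or corrections, of stretches that the chromosomes already hold. Scaffolds are rich in satellite repeats, segmental duplications and ribosomal DNA, which resist assembly. The sources used here do not say how reads that align to several places were assigned.

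The names in the peak lists did not carry the usual prefixes. No member stood on a sequence named as unplaced, random, alternate or mitochondrial, and all 1178 member intervals had GenBank-style names such as GL000225.1. The sequences were therefore grouped by general knowledge of how GRCh38 numbers its sequences, a choice made after the names were seen. This gave 146 regions on 52 unplaced scaffolds, 141 on 29 unlocalized scaffolds, 149 on 64 alternate loci and 112 on 32 patches. Unplaced and unlocalized sequences are called scaffolds below.

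Scaffold peaks were nearly as many in short lists as in long ones, while peaks on alternate loci and patches followed the length of the list. There were 162 scaffold peaks in p53WT 1 and 214 in p53WT 2. CASM34 1 had 177 of them and CASM34 2 had 191. Peaks on alternate loci and patches came to 59, 184, 72 and 119 in the same order. The libraries numbered 2 were the higher in both groups, and on alternate loci and patches the gap was the wider. Alternate loci and patches averaged 151.5 ± 46.0 peaks (SD, n = 2) in the libraries numbered 2 and 65.5 ± 9.19 (SD, n = 2) in those numbered 1, a difference of 86 (exact two-sided permutation p = 0.333, the smallest that 2 against 2 can give). That difference was 10.5 with each list kept to its best 1825 peaks, where scaffold peaks came to 162, 161, 171 and 158 and those on alternate loci and patches to 59, 78, 68 and 70. As a share of the whole list, alternate loci and patches made up 3.23% in p53WT 1 (exact Clopper-Pearson 95% interval 2.47 to 4.15), 3.43% in p53WT 2 (2.96 to 3.96), 3.67% in CASM34 1 (2.88 to 4.60) and 3.38% in CASM34 2 (2.81 to 4.03). These 4 intervals overlap one another. Scaffolds held 8.88% (7.61 to 10.3), 3.99% (3.48 to 4.55), 9.03% (7.79 to 10.4) and 5.42% (4.70 to 6.22). Here the libraries numbered 1 lay above those numbered 2, with intervals that do not meet. All intervals cover counting error only.

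**Figure D1:**
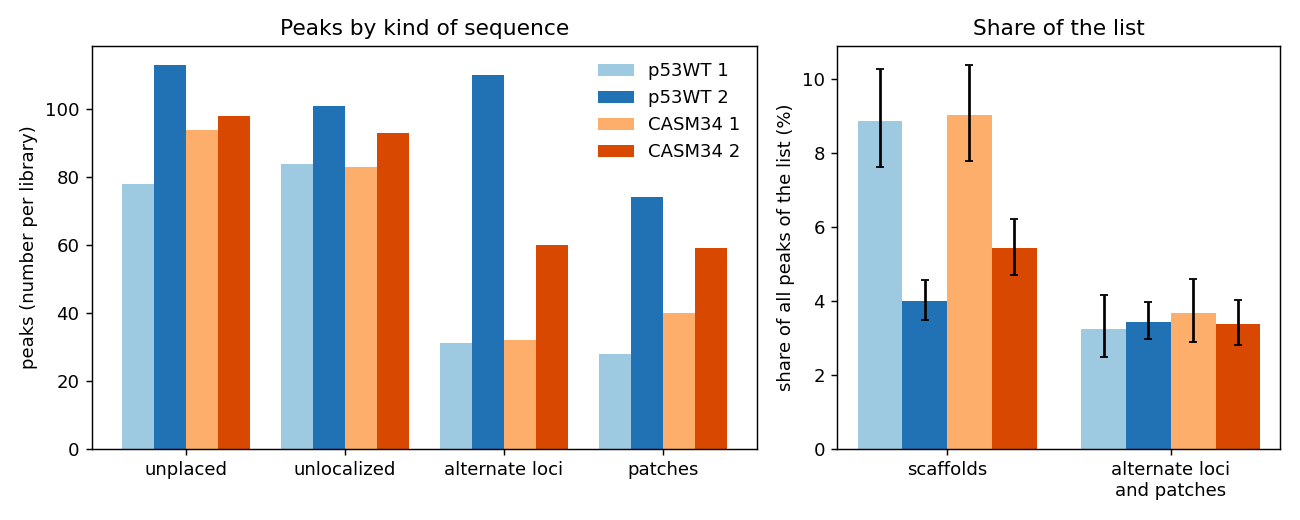
Left, number of peaks per library (bars) on each kind of sequence; right, share of all peaks of the list in %, with exact 95% binomial intervals as error bars. Scaffold counts run from 162 to 214 over the libraries, while alternate loci and patches run from 59 to 184 and keep a share between 3.23% and 3.67%.

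The members did not separate wild-type p53 from CASM34 by number. In p53WT their mean was 309.5 ± 125.2 peaks (SD, n = 2), and in CASM34 it was 279.5 ± 43.1 (SD, n = 2; exact two-sided permutation p = 1). The difference of 30 peaks was smaller than the spread within p53WT, and it turned to -58.5 without p53WT 2 and to -0.5 without CASM34 1. Their mean share of the list was 9.77% ± 3.31 (SD, n = 2) for p53WT, while CASM34 had 10.8% ± 2.75 (SD, n = 2; exact two-sided permutation p = 0.667). The difference of -0.98 percentage points turned to 1.36 without p53WT 2 and to 0.96 without CASM34 1. They covered 107826 ± 35305 bp (SD, n = 2) and 103063 ± 8556 bp (SD, n = 2), again within the spread (exact two-sided permutation p = 1). Of the members, 31.7% ± 8.93 (SD, n = 2) were on unlocalized scaffolds in p53WT, and in CASM34 31.7% ± 2.36 (SD, n = 2; exact two-sided permutation p = 1). Over 38 such comparisons between the groups, the Benjamini-Hochberg adjusted value was 1 for each of these 4 measures.

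Regions on scaffolds were called in all 4 libraries more often than those on chromosomes. Of the 548 regions, 137 (25%, 95% interval 21.4 to 28.8) were in all 4 libraries, against 9.46% of all regions and 8.36% (7.76 to 9.0) of the 7749 regions on chromosomes. Scaffolds carried 113 of the 137: 61 of 146 unplaced regions (41.8%, 33.7 to 50.2) and 52 of 141 unlocalized ones (36.9%, 28.9 to 45.4). Patches had 14 of 112 (12.5%, 7.01 to 20.1) and alternate loci 10 of 149 (6.71%, 3.27 to 12.0), shares whose intervals include that of the chromosomes. Regions seen in 1 library only made up 36.6% of scaffold regions and 64.8% of those on alternate loci and patches, against 72.4% of all regions. The largest such group was p53WT 2 alone, with 70 regions on alternate loci and 36 on patches. The list of p53WT 2 was also the longest, with 5359 intervals. The share of regions in p53WT 2 alone over all regions was not computed, so these counts are not a trait of these sequences. Regions are not independent of one another, and these intervals hold no spread between libraries. With lists of equal length 126 of 376 regions (33.5%) were in all 4. The share over all regions or chromosomes was not recomputed at that length, so 33.5% cannot be set against the shares above.

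**Figure D2:**
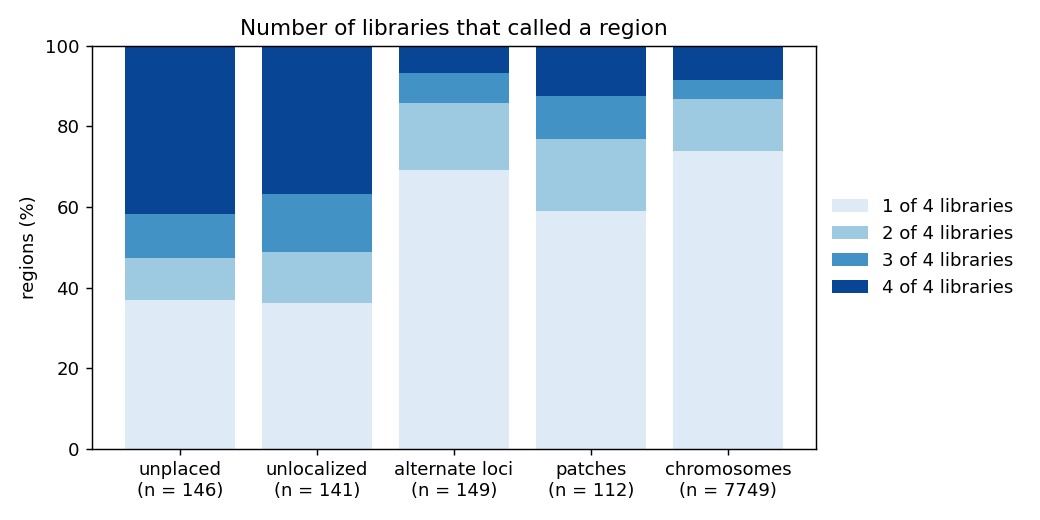
Share of regions in % (stacked bars) called in 1, 2, 3 or all 4 libraries, for each kind of sequence and for the chromosomes, with the number of regions under each bar. The darkest part, regions in all 4 libraries, reaches 41.8% on unplaced and 36.9% on unlocalized scaffolds against 8.36% on chromosomes.

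The library sharing most with a given list was not always the other of its group. Of the 221 members of p53WT 1, 77.8% overlapped a member of p53WT 2, 75.1% one of CASM34 1 and 81.9% one of CASM34 2. Of the 249 members of CASM34 1, 74.3% overlapped a member of CASM34 2, 65.9% one of p53WT 1 and 71.5% one of p53WT 2. Thus p53WT 1 shared most with CASM34 2, and CASM34 1 shared most with its own group. The lists numbered 2 shared most with each other: 54.8% of the 398 members of p53WT 2 overlapped CASM34 2, against 43.5% for p53WT 1 and 45.7% for CASM34 1. Of the 310 members of CASM34 2, 70.0% overlapped p53WT 2, 60.6% CASM34 1 and 58.4% p53WT 1. These shares depend on the length of both lists, which differed, and they were not recomputed at equal length. On chromosomes the corresponding shares for p53WT 1 were 58.4%, 59.9% and 54.6%. There CASM34 1 shared 52.1% with CASM34 2, 55.7% with p53WT 1 and 56.2% with p53WT 2. The lists numbered 2 shared most with each other on chromosomes too. For p53WT 2 the shares were 28.7% with CASM34 2, 18.9% with p53WT 1 and 19.4% with CASM34 1. For CASM34 2 they were 44.4% with p53WT 2, 27.9% with CASM34 1 and 27.1% with p53WT 1. No test was made, because each library enters several pairs.

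Scaffold peaks ranked high within each list. Peaks were ranked by the deposited −log10 p, with 100 as the best, and ranks were compared within a library only. The median rank percentile of scaffold peaks was 71.4 and 87.1 in the p53WT libraries 1 and 2, and 69.7 and 84.7 in the CASM34 libraries 1 and 2. For alternate loci and patches it was 32.5, 60.9, 41.1 and 56.1, and for chromosome peaks 48.8, 46.7, 49.1 and 47.9. Scaffold peaks were the higher in 4 of 4 libraries in both comparisons, by 30.6 ± 5.64 points over alternate loci and patches and by 30.1 ± 9.94 over chromosomes (SD, n = 4). Each gave an exact two-sided sign-flip permutation p of 0.125, the smallest 4 libraries allow (Benjamini-Hochberg adjusted 0.192 over 20 comparisons). Alternate loci and patches differed from chromosomes by -0.48 ± 14.1 points (SD, n = 4), higher in 2 of 4 libraries (exact sign-flip permutation p = 1). Taken as one set, the members exceeded chromosome peaks by 20.2 ± 10.1 points (SD, n = 4), in 4 of 4 libraries (exact sign-flip permutation p = 0.125).

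**Figure D3:**
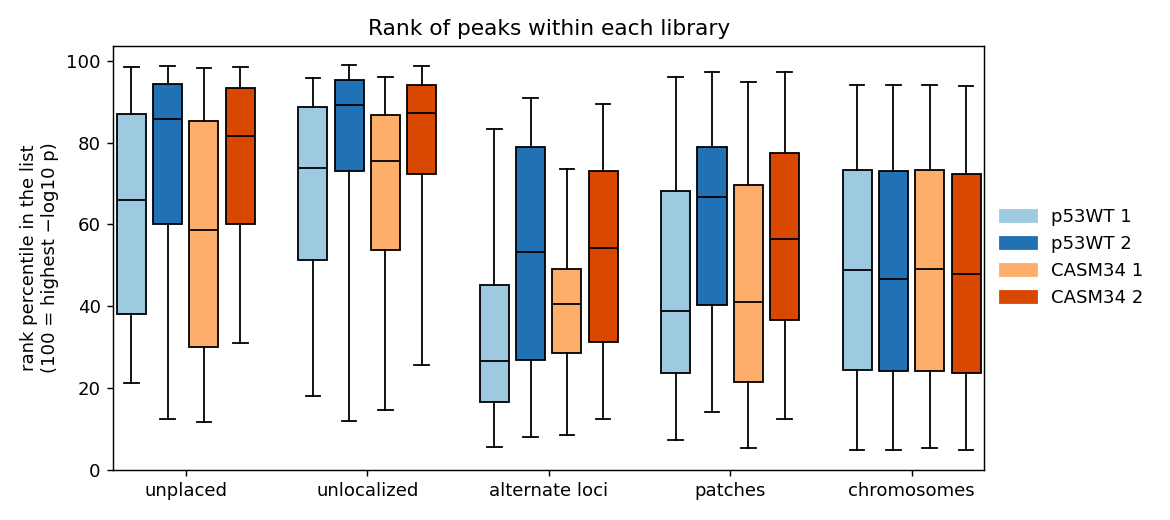
Rank percentile of peaks within their list (y axis, 100 is the highest −log10 p) by kind of sequence and library. Boxes span the quartiles, the line is the median and whiskers reach the 5th and 95th percentiles. Scaffold medians lie between 58.7 and 89.3, above every chromosome median.

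Among the 100 best peaks of each list, members made up 26 and 28 in p53WT 1 and 2 and 24 and 28 in CASM34 1 and 2. Unplaced scaffolds gave 12 to 14 of them, unlocalized scaffolds 10 or 11, patches 2 to 4 and alternate loci 0 in every library. The fold, deposited by the authors, is the enrichment of a peak over its background. Its median over members was 5.21 and 4.89 in p53WT 1 and 2 and 5.26 and 5.00 in CASM34 1 and 2, against 6.30, 4.70, 6.11 and 4.84 on chromosomes. In the lists as deposited, members were thus lower in the libraries numbered 1 and slightly higher in those numbered 2, a mean difference of -0.40 ± 0.67 (SD, n = 4; exact sign-flip permutation p = 0.5). With lists of equal length members were lower in 4 of 4 libraries, with a mean difference of -0.74 (exact sign-flip permutation p = 0.125). The difference as deposited was -0.17 without p53WT 1 and -0.25 without CASM34 1. Member peaks were wider, with medians of 280, 250, 294 and 264 bp against 233, 224, 236.5 and 231 bp on chromosomes. The difference of 40.9 ± 14.1 bp (SD, n = 4) held in 4 of 4 libraries (exact sign-flip permutation p = 0.125). Intervals with more than 1 deposited summit made up 18.1%, 12.6%, 17.3% and 17.4% of members and 7.92%, 3.41%, 7.30% and 5.54% of chromosome peaks. This difference of 10.3 ± 1.14 percentage points (SD, n = 4) was also seen in 4 of 4 libraries (exact sign-flip permutation p = 0.125).

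A few sequences held many of the regions. The 10 with the most carried 191 of 548 (34.9%), while 88 of 177 sequences had 1 region each. First was GL000225.1, an unlocalized scaffold of chromosome 14, with 55 regions of which 24 were in all 4 libraries. Each library called a similar number there, 40 and 39 in p53WT 1 and 2 and 38 and 40 in CASM34 1 and 2. The patches ML143377.1 and ML143371.1 followed with 20 regions each, but only 1 of each was in all 4 libraries. ML143377.1 had 5, 14, 7 and 10 regions in the order p53WT 1, p53WT 2, CASM34 1, CASM34 2, and ML143371.1 had 2, 14, 4 and 11. On these patches the libraries numbered 2 were the higher, unlike on GL000225.1. GL000216.2, which is unplaced, had 15 regions with 11 in all 4, and KI270709.1, an unlocalized scaffold of chromosome 1, had 13 with 10. KI270744.1 and GL000214.1, both unplaced, had 11 each, with 4 and 6 in all 4 libraries. The alternate locus KI270894.1, tied with others at 10 regions, had 1 in all 4 libraries. The other two of these 10 sequences, KI270733.1 and GL000220.1, hold ribosomal DNA and are described below. By assigned chromosome, unlocalized regions numbered 63 for chromosome 14, 31 for 22 and 22 for 1.

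Of the 55 regions on GL000225.1, 24 were in all 4 libraries and 13 in 1 library only. Single-library regions could be well ranked: p53WT 1 alone called one from 87987 to 88165 with a −log10 q of 31.1, chosen after its value was seen. The strongest region, from 25521 to 25803, had a −log10 q of 224 and 173 in p53WT 1 and 2 and of 242 and 204 in CASM34 1 and 2. Its fold was 22.5, 20.1, 22.5 and 21.2 in that order, and its summits lay within 5 bp of each other. The next, from 67263 to 67652, had a −log10 q of 171, 164, 181 and 204. The groups overlapped in the first of these regions, while in the second both CASM34 libraries lay above both p53WT libraries in −log10 q. Between lists −log10 q may differ with read depth, which is unknown. Such orders are descriptive and were not tested, and how often each occurs was not counted. The reverse order also occurred, as on KI270736.1 from 180212 to 180760. There −log10 q was 15.3 and 12.8 in p53WT 1 and 2 and 9.83 and 11.8 in CASM34 1 and 2.

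**Figure D4:**
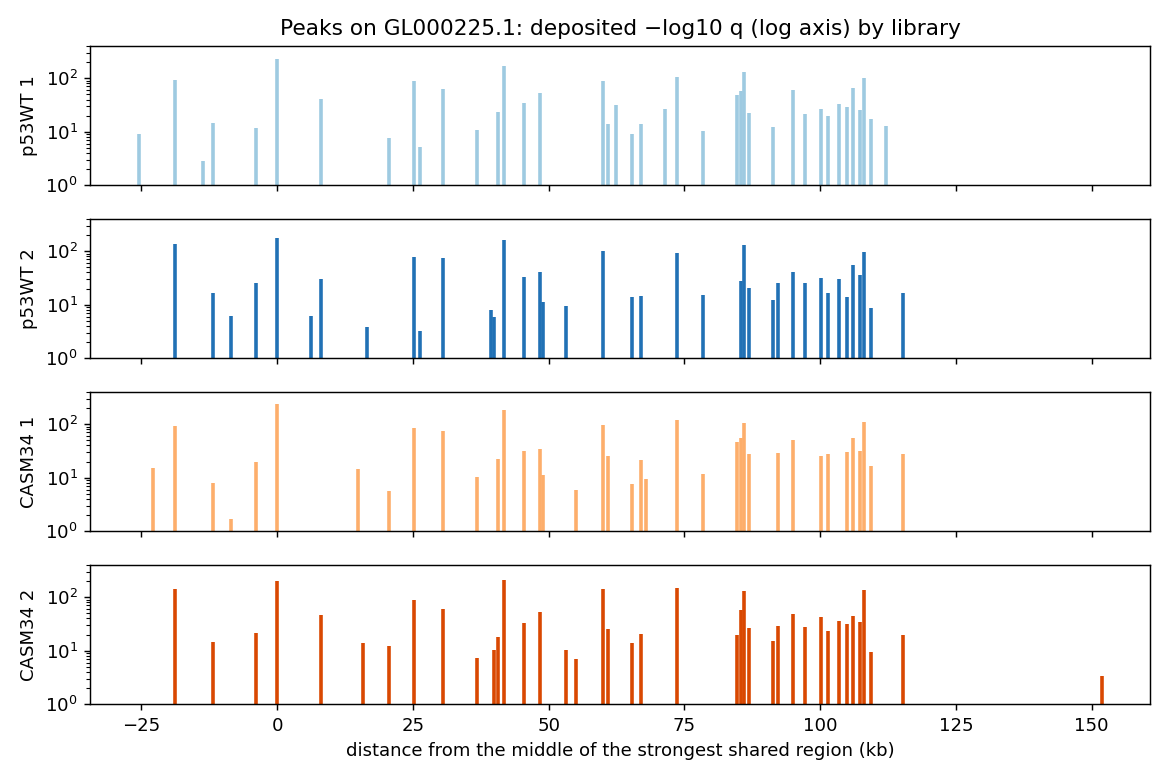
Peaks on GL000225.1 in each library: deposited −log10 q (y axis, log scale) against distance in kb from the middle of the strongest region called in all 4 libraries. Each vertical line is 1 region, and 24 of the 55 regions recur in all 4 panels.

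The best-ranked regions in all 4 libraries lay on 6 sequences. At the top was KI270310.1, an unplaced sequence, from 434 to 1145. Its −log10 q was 406 and 322 in p53WT 1 and 2 and 394 and 348 in CASM34 1 and 2, and its fold 34.0, 32.7, 32.3 and 33.8. The p53WT libraries held both the highest and the lowest −log10 q of this region. GL000216.2 followed, from 149400 to 149826, with a −log10 q of 375, 286, 365 and 433 and summits within 7 bp. KI270438.1, which is unplaced, gave 4 of the 10. Its region from 103892 to 104435 had a −log10 q of 309, 271, 308 and 347 at a fold of 10.2, 11.3, 9.66 and 11.1. Another, from 109181 to 110640, combined a −log10 q of 207, 193, 276 and 245 with a fold of only 5.44, 5.99, 5.92 and 5.91. There both CASM34 libraries were above both p53WT libraries in −log10 q but not in fold, an order that was not tested. The remaining 2 of KI270438.1, from 104621 to 105042 and from 112053 to 112442, had folds between 4.04 and 5.98. KI270303.1 (874 to 1760), also unplaced, had a −log10 q of 220, 224, 225 and 220. The patch KQ983257.1 (205667 to 206461) had 159, 152, 160 and 189. Genes, exons and sequence of these places were not analysed here.

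Summits of shared regions were close together on scaffolds and less so on alternate loci. Over the regions in all 4 libraries, the span from the lowest to the highest summit had a median of 28 bp on unplaced and 18.5 bp on unlocalized scaffolds. It was 56 bp on patches and 138.5 bp on alternate loci, which had only 14 and 10 such regions, and 22 bp on chromosomes. Spans of at most 50 bp were found in 89 of the 137 members (65.0%) and in 494 of 648 regions on chromosomes (76.2%). The alternate locus KI270894.1 showed the wide case. Its region from 209130 to 210406, the widest on alternate loci, had summits 856 bp apart and a −log10 q of 8.75, 6.25, 7.09 and 2.67. In contrast, the widest patch region, on KQ983258.1 from 201912 to 203007, had summits within 11 bp and a −log10 q of 12.4, 25.6, 19.8 and 25.5.

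Some unplaced sequences carried a single wide region. Of 26 sequences whose last called base lay before 2500, 24 were unplaced. KI270465.1 had 1 region of 1437 bp, from 97 to 1533, and KI270544.1 had 1 of 1029 bp, from 93 to 1121, both in all 4 libraries. The widest region of all members lay on KI270411.1, from 187 to 2443, with a −log10 q of 59.7 and 53.1 in p53WT 1 and 2 and of 66.4 and 72.2 in CASM34 1 and 2. The widest unlocalized region, on GL000008.2 (chromosome 4) from 1711 to 3510, had 17.1, 13.0, 14.6 and 19.8. The full lengths of these sequences were not used here. Regions with a neighbour on the same sequence lay a median of 1105 bp from the nearest one on unplaced and 1132.5 bp on unlocalized scaffolds, against 13060 bp on alternate loci and 6416 bp on patches.

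Ribosomal DNA encodes the 45S precursor, from which the 18S, 5.8S and 28S RNAs of the ribosome are cut. Its units lie in tandem, separated by an intergenic spacer. In RefSeq's GRCh38.p14 table, RNA45SN4 spans 122273 to 135645 under chromosome 22 and RNA45SN5 spans 105424 to 118780 with chromosome Unknown. The table names no scaffold, and their placement on KI270733.1 and GL000220.1 is general knowledge of this build. KI270733.1 held 19 regions, of which p53WT 1 and 2 called 7 and 14 and CASM34 1 and 2 called 9 and 14. GL000220.1 held 17, with 3, 8, 6 and 10. On both, the libraries numbered 2 had more than those numbered 1 of the same group.

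Ribosomal DNA regions were found both in the annotated 45S unit and past its end. Counting regions of any library, their number per length was similar. On KI270733.1, 14 of 19 lay after its end, 4 overlapped it and 1 lay before its start, and on GL000220.1 the counts were 11, 3 and 3 of 17. The unit of KI270733.1 had 0.299 regions per kb, and the 43.7 kb from its end to the last called base had 0.320. On GL000220.1 the unit had 0.225 per kb and the following 41.4 kb had 0.266. The 3 regions overlapping that unit were each called in 1 library, at a −log10 q of 1.85, 1.63 and 3.46. Each later stretch ends at its last called base, so the calls themselves set its length. No further 45S unit was placed here in either stretch. Whether these stretches hold only spacer or also part of another unit was not examined, so they are not a measure of spacer alone. The mature ribosomal RNA genes placed here, 1 set per scaffold, were met by 1 region on each. RNA28SN4 was met at its end by the region from 135104 to 136188, and RNA5-8SN5 by a region of CASM34 2 alone from 111902 to 112639. Any further copies were not looked at. In all 4 libraries were 5 regions of KI270733.1 and 2 of GL000220.1. On KI270733.1, 2 of these overlapped the unit and 3 lay after its end, and on GL000220.1 the counts were 0 and 2. The strongest stood 945 bp past the end of RNA45SN5, from 119725 to 120192, with a −log10 q of 23.7 and 59.8 in p53WT 1 and 2 and of 31.3 and 60.4 in CASM34 1 and 2. The region at the end of RNA45SN4 (135104 to 136188) had 7.38, 27.6, 5.40 and 25.3. In both places the libraries numbered 2 lay above those numbered 1, and the groups overlapped. Well past the 45S end, a region stood at nearly the same distance from the 45S start on both scaffolds, from 36333 to 36536 bp on KI270733.1 and from 36563 to 36807 bp on GL000220.1. Its −log10 q was 15.6, 12.0, 21.4 and 18.0 on the former and 24.5, 19.7, 24.7 and 22.7 on the latter, so here the libraries numbered 1 were the higher in both groups. In the transcribed part before RNA18SN4, a region from 123869 to 124536 had 5.44, 9.02, 14.1 and 11.0. Both CASM34 libraries lay above both p53WT libraries there, an order that was not tested. Upstream of RNA45SN5, a region 296 bp before the start (104149 to 105128) was called in p53WT 2, CASM34 1 and CASM34 2 at 6.88, 1.94 and 4.40. These copies are near-identical, so reads cannot be tied to 1 of them with certainty.

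**Figure D5:**
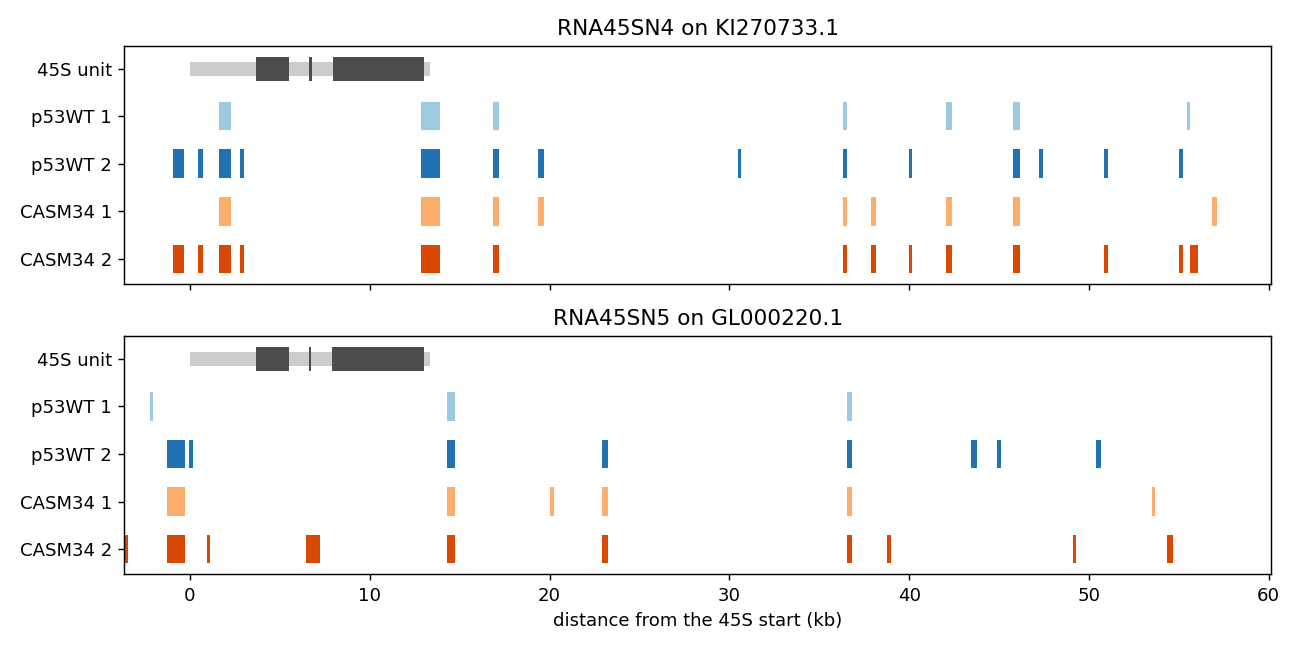
Regions called in each library (coloured bars) around RNA45SN4 on KI270733.1 and RNA45SN5 on GL000220.1, against distance in kb from the 45S start; grey is the 45S unit and dark grey the 18S, 5.8S and 28S genes. Of 19 and 17 regions, 14 and 11 lie after the end of the annotated unit.

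Few regions were specific to a group, for p53WT at about the share over all regions and for CASM34 above it. Both p53WT libraries and neither CASM34 library called 5 of 548 regions (0.912%, 95% interval 0.297 to 2.12), against 1.10% of all regions. Both CASM34 libraries and neither p53WT library called 14 (2.55%, 1.40 to 4.25), against 0.916% of all regions. These intervals treat regions as independent and hold no spread between libraries. Of the 5, 1 lay on a scaffold, and of the 14, 6 did. Split by number, 38 regions (6.93%) were in the libraries numbered 2 alone, against 7.58% of all regions, and 3 in those numbered 1 alone, against 1.28%. The counts of 5 and 14 became 3 and 9 with lists of equal length, and 0 and 5 among peaks whose −log10 q reached 5. Without CASM34 1 or CASM34 2 the p53WT count was 11 or 25, and without p53WT 1 or p53WT 2 the CASM34 count was 31 or 30. Where a group kept a single library the count rose as well, to 157 without p53WT 1 and 31 without p53WT 2, and to 73 without CASM34 1 and 52 without CASM34 2. The shares over all regions were not recomputed for any of these settings.

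Of the p53WT-specific regions, the best by rank was on GL000225.1 from 51878 to 52198, with a −log10 q of 5.23 in p53WT 1 and 3.29 in p53WT 2. Others were on the patches KQ090023.1 (58643 to 59054; 4.75 and 4.73) and KZ208906.1 (195468 to 195752; 3.40 and 7.18). Of the CASM34-specific ones, the best by rank was on the alternate locus KB021644.2 from 69513 to 69816, with a −log10 q of 7.42 in CASM34 1 and 6.58 in CASM34 2. GL000225.1 again had one, from 80524 to 80796 (5.93 and 7.09), and the alternate locus KI270772.1 had another, from 11655 to 12002 (5.08 and 7.23). GL000225.1 thus gave a region to each group among its 55. The lowest rank percentile of a specific region had a median of 19.0 over the 5 and 21.5 over the 14, and its maximum was 33.5 and 48.9. Each thus ranked below the middle of at least 1 list that called it. In the longer list of their group the ranks were 55.2 to 83.0 for the 5 (p53WT 2) and 1.73 to 72.7 for the 14 (CASM34 2).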

How the data were processed

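Per the submitters' processing notes, reads were handled with Trim Galore, Bowtie2 and bedtools on GRCh38. The sources used here do not give the peak caller, its control library or its threshold. The authors deposited 1 peak list per library, with replicates not pooled. Each row holds an interval, a summit, the authors' fold (the ratio of a peak to its background), −log10 values of p and of q as deposited, and a score, also the authors'. The smallest −log10 q was 1.30. All are the authors' own values, and they served to rank and filter peaks inside 1 list at a time. Where they are printed side by side for several libraries, the comparison is descriptive only. There are no read counts in the lists, so depth is unknown.

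Rows that share an interval count as 1 peak and keep the summit with the highest −log10 p, and coordinates are printed counted from 1. Regions were merged in Python 3.11.15 (pandas 2.3.3, scipy 1.17.1) and checked against bedtools 2.31.1 and on simulated peaks. Members and lists were chosen with earlier results of these data known. The planned classes by name prefix held no member, so sequence classes, and every test of scaffolds, alternate loci or patches, were set after the names were seen; the random class became the unlocalized one. Named sequences and regions are the 10 sequences with most regions, the 10 best regions in all 4 libraries, the 3 best specific to each group and the widest of each class; all regions of the class "other" would be every member and were summarised. Ribosomal genes were the only genes placed; the other sequences named were chosen after their values were seen. No genome sequence was used here. Tests were exact permutation tests over libraries, two-sided, and alternatives are in the closing section.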

Additional observations from a re-analysis of the deposited data

How the results depend on the processing

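Of 86 values recomputed for 11 results, 61 kept their direction or stayed within 1.5 times the count, 13 turned direction and 12 counts moved further. Some of the 61 could not have turned, as stated below. The differences in width and rank percentile between members and chromosome peaks kept their direction under every alternative tried. Both were positive in all 4 libraries, so leaving out 1 library could not turn them. The count of 137 regions in all 4 libraries stayed within 1.5 times. Stricter limits mostly can only lower that count, and it was 112 for a −log10 q of 5 or more. Without 1 library the count is of regions in all that remain, an easier condition, and it reached 158 without CASM34 1. The mean fold difference kept its sign but moved from -0.40 to -0.74, -1.13 and -0.74 for a −log10 q of 3 or more, of 5 or more and equal lists. In these 3 settings members were lower in 4 of 4 libraries, against 2 of 4 as deposited, so the libraries numbered 2 turned. Without 1 library it ran from -0.59 to -0.17. No test between the groups could pass a threshold of 0.05 on p with 2 libraries against 2. Nor could a sign-flip permutation test over 4 libraries (smallest possible p 0.125). The difference in number, p53WT minus CASM34, was -4 for a −log10 q of 5 or more and -3.5 with lists of equal length; leaving out 1 library gave -58.5 to 118.5. The difference in covered bases was -791.5, -2911 and -2149 bp at limits of 3 and 5 and with equal lists; leaving out 1 library gave -20202 to 29727. The share of the list ran from -3.32 to 1.36 points and the unlocalized share from -6.29 to 6.34 points without 1 library. In each the cause was not tested. The p53WT-specific count was 0 at the stricter of both −log10 q limits and 3 with equal lists, and 11 to 157 without 1 library. The CASM34-specific count was 5 and 9, and 30 to 73 without 1 library; fewer peaks or libraries enter each. With the library number as a replicate block, the mean differences equal the unblocked ones by construction. They were 30 peaks, -0.98 points, 4762.5 bp and 0.026 points (exact sign-flip p between 0.5 and 1, smallest possible 0.5). Within number 1 and number 2 they were -28 and 88 peaks. The change from number 1 to number 2 was nearly uncorrelated between the groups over 548 regions (r = 0.025). Only regions called in at least 1 library entered, which itself shapes r, so r cannot decide whether the numbers pair the libraries. With 2 pairs, the numbers are not shown to pair the libraries. Read depth is unknown, so an absent peak cannot be told from a shallow library.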
